A study of Homo sapiens with 6 samples.

Results

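The MAPK feedback and ERK output genes were followed in the ovarian cancer cell line HEY after knockdown of PQBP1, a nuclear splicing factor of the spliceosome. The set holds 10 genes chosen by symbol: DUSP4, DUSP5, DUSP6, SPRY2, SPRY4, SPRED1, ETV4, ETV5, PHLDA1 and IER3. Each symbol matched 1 row of the deposited gene table, so that the set is 10 of 32679 genes. Expression was measured by paired-end Illumina RNA-seq of poly(A) RNA in 6 samples. In the labels, the 3 shNC samples carry a control hairpin, were untreated and were taken on day 3. The 3 shPQBP1 samples carry a doxycycline-inducible hairpin against PQBP1, received doxycycline at 1 µg/ml and were also taken on day 3. The hairpin and the drug thus differ together between the groups, and their effects cannot be told apart. The study's methods describe lines made stable by lentivirus and puromycin selection, and do not say that a line is a single clone. The design text calls the samples biological triplicates and says nothing of separate cultures, so p-values measure the spread between these samples.

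The ERK pathway carries signals from receptor tyrosine kinases through RAS, RAF and MEK to the ERK kinases, which phosphorylate targets in the cytoplasm and the nucleus. Active ERK raises the transcription of its own brakes. The dual-specificity phosphatases DUSP4 and DUSP5 in the nucleus and DUSP6 in the cytoplasm dephosphorylate ERK, and the Sprouty and SPRED proteins act upstream on RAS and RAF. ETV4 and ETV5 are transcription factors of the ETS family whose genes are induced by ERK and repressed by CIC, and PHLDA1 and IER3 are further genes induced by growth factors. Transcript levels of such genes are widely used as a readout of ERK activity in tumor cells.

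The values are FPKM as deposited, which are fragments per kilobase divided by the size of the library. They carry no read counts, so the depth behind each value is unknown and no counting interval is given. PQBP1, the target of the hairpin, stood at 7.18, 6.67 and 6.93 FPKM in the controls and at 1.68, 1.72 and 1.44 FPKM in each shPQBP1 sample (log2 fold change -2.04, standard error 0.10, adjusted p = 0.00154 from limma). The FPKM summed over all genes was 295000 to 318500 in shNC and 278300 to 287400 in shPQBP1 samples. Mitochondrially encoded genes held 33.5% to 35.8% of the sum in shNC and 28.8% to 30.5% in shPQBP1 samples. Their part in the results was not tested. The shNC sample 1 stood apart from its group: 379 of the 11413 genes tested (3.32%) lay more than 1 log2 unit from both other samples of the group, against between 1.17% and 1.49% for each other sample. Of 7 markers of ovarian carcinoma and epithelium, PAX8, KRT7, KRT8 and KRT18 had a mean of at least 1 FPKM, while EPCAM stayed at or under 1.13, WT1 at or under 0.71 and MUC16 at or under 0.01 FPKM in each sample. The summed level of the 7 markers ranged from 207.1 to 243.0 FPKM in the shNC samples and from 218.2 to 243.3 in the shPQBP1 samples, and none of the 4 tested ones had an adjusted p under 0.05. This sum is mostly keratin: PAX8 had 15.70, 14.89 and 12.33 FPKM in the shNC samples and 18.41, 24.08 and 19.79 in the shPQBP1 samples, without overlap (log2 fold change 0.53, adjusted p = 0.102 from limma). WT1, under the filter of 1 FPKM and not tested, was lower without overlap, at 0.63, 0.71 and 0.68 against 0.31, 0.34 and 0.45 FPKM. The mesenchymal marker VIM ranged from 1112 to 1227 FPKM in shNC and from 1272 to 1343 in shPQBP1 samples. The endothelial marker CDH5 had 2.11, 2.96 and 2.49 FPKM in the shNC samples and 3.10, 3.55 and 3.64 in the shPQBP1 samples, without overlap (adjusted p = 0.151 from limma), while PECAM1, likewise not tested, was lower without overlap, at 0.24, 0.23 and 0.25 against 0.02, 0.03 and 0.06 FPKM. The stromal markers PDGFRB and DCN, not tested, summed to at most 0.14 FPKM. PDGFRB was lower without overlap, at 0.12, 0.13 and 0.09 against 0.02, 0.03 and 0.01 FPKM. The part of these markers in the results was not tested. Of the immune markers, PTPRC was listed at 0 in all samples, while CD68, which is expressed outside immune cells too, had 14.78, 15.57 and 9.12 FPKM in the shNC samples and 15.05, 12.14 and 21.16 in the shPQBP1 samples (adjusted p = 0.531 from limma).

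To ask whether ERK output differed between shPQBP1 and shNC cells, the 10 genes were read from a test of all genes with a mean of at least 1 FPKM (limma, two-sided, on log2(FPKM + 0.1), a scale that understates the change of low genes). All 10 passed this filter. ETV4 fell, and it alone of the 10 passed an adjusted p of 0.05 (Benjamini-Hochberg, from limma), as did 2.91% of all tested genes. At an unadjusted p under 0.05 from limma, 4 of the 10 stood out, against 23.6% of all tested genes. DUSP4, SPRY2 and IER3 were higher in the shPQBP1 samples, where 11.9% of all tested genes were higher at this threshold. ETV4 was lower, where 11.7% were lower. In the same 4 genes, every shPQBP1 sample lay on one side of every shNC sample, which was so for 34.4% of all tested genes. The log2 fold change was above 0 in 4 genes and below 0 in 6, with a median of -0.03 against 0.02 over all tested genes, and it stayed between -0.47 and 0.34. The feedback and output genes therefore did not move in 1 direction, and DUSP5, DUSP6, SPRY4, SPRED1, ETV5 and PHLDA1 overlapped between the groups. In such bulk samples, fewer cells of a kind and less RNA per cell cannot be told apart.

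**Figure D1:**
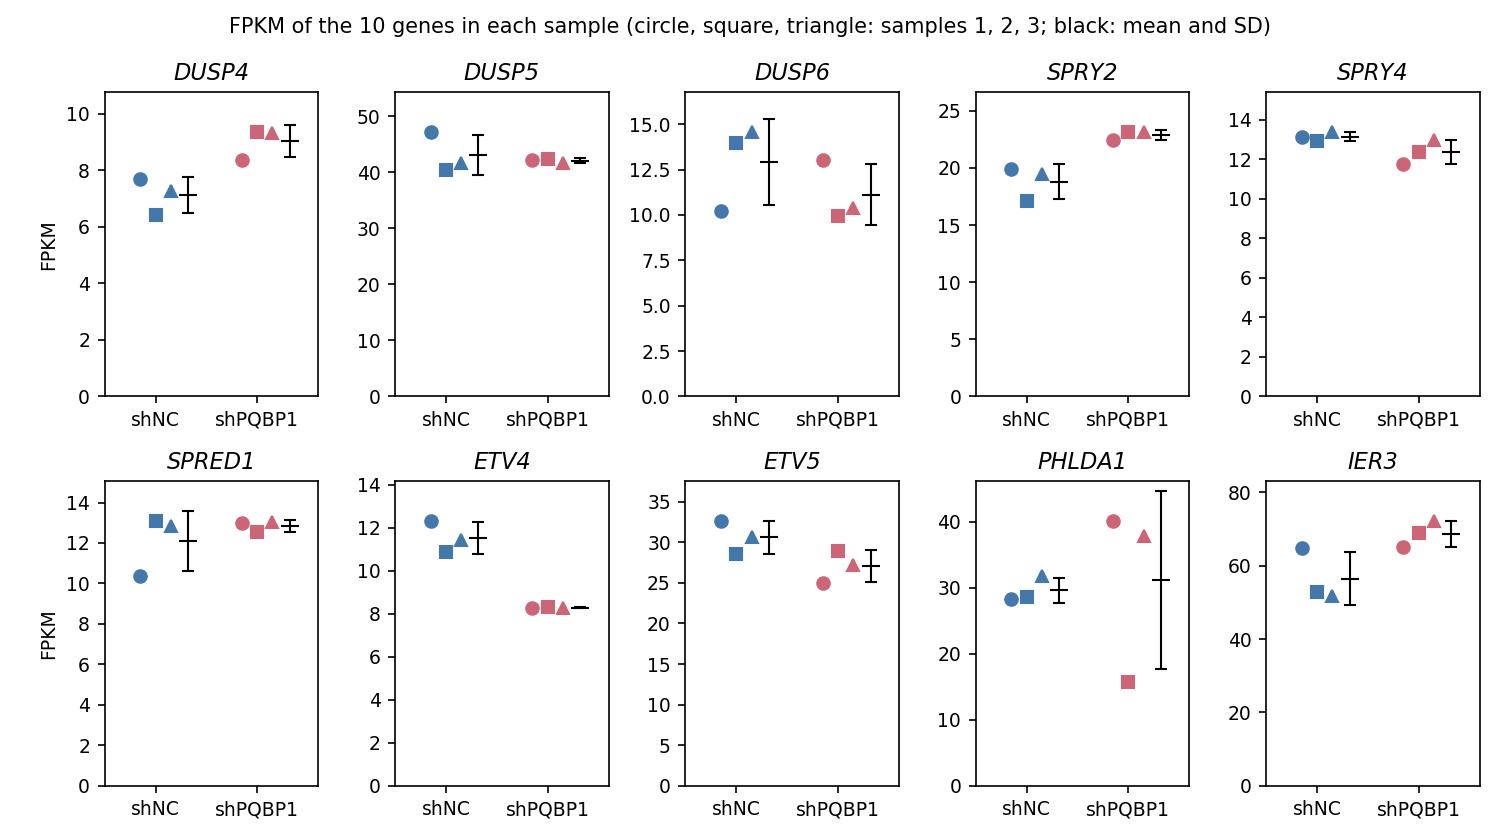
FPKM of the 10 genes (vertical axes from 0) in the 3 shNC samples (blue) and the 3 shPQBP1 samples (red), with circle, square and triangle for samples 1, 2 and 3 and the mean and SD in black. The groups separate for DUSP4, SPRY2, ETV4 and IER3, and PHLDA1 is at 15.72 FPKM in shPQBP1 sample 2 against 40.11 and 37.85 in the other two.

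DUSP4 (ENSG00000120875, chromosome 8 of hg38 from 29333064 to 29350684, minus strand) is a nuclear phosphatase of ERK and other MAP kinases. It had 7.69, 6.43 and 7.28 FPKM in shNC and 8.37, 9.36 and 9.33 FPKM in shPQBP1 cells. Every shPQBP1 sample lay above every shNC sample. The log2 fold change was 0.34 (standard error 0.10, 95% interval from 0.09 to 0.58), or 26.3% higher, and the adjusted p of limma was 0.126. The exact permutation test of the 6 samples gave p = 0.1, the smallest that 3 against 3 allow (two-sided).

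DUSP5 (ENSG00000138166, chromosome 10 from 110497907 to 110511533, plus strand), the ERK-specific nuclear phosphatase, was the most abundant of the 3 phosphatases. It had 47.26, 40.40 and 41.67 FPKM in the shNC samples and 42.27, 42.36 and 41.64 in the shPQBP1 samples. The shPQBP1 values lay inside the shNC range, with a log2 fold change of -0.03 (95% interval from -0.23 to 0.17, adjusted p = 0.826 from limma). Among the shPQBP1 samples its log2 range of 0.025 was at percentile 1.43 of all tested genes. DUSP6 (ENSG00000139318, chromosome 12 from 89347235 to 89352501, minus strand), the cytoplasmic ERK phosphatase, had 10.22, 13.98 and 14.59 FPKM in the shNC samples and 13.03, 9.96 and 10.37 in the shPQBP1 samples. One sample of each group crossed over: shNC sample 1 lay with the lower shPQBP1 samples, and shPQBP1 sample 1 with the higher shNC samples. This gave a difference of -0.21 on the log2 scale (standard error 0.17, 95% interval from -0.63 to 0.21, adjusted p = 0.475 from limma). Leave-one-out fits of DUSP6 ranged from -0.11 without shNC sample 3 to -0.37 without shNC sample 1, with an adjusted p of 0.175 from limma or above in each case. It was -0.14 without shPQBP1 sample 2. An antisense non-coding gene, ENSG00000274021, shares 1105 of the 3859 exonic bases of DUSP6 in GENCODE release 44. It had 2.64, 1.00 and 0.56 FPKM in the shNC samples and 1.26, 1.87 and 1.24 in the shPQBP1 samples. Its 2 highest values fell in shNC sample 1 and shPQBP1 sample 2, where DUSP6 had 10.22 and 9.96 FPKM. In shPQBP1 samples 1 and 3 the antisense gene was nearly equal, at 1.26 and 1.24, where DUSP6 had 13.03 and 10.37 FPKM. The methods do not say that reads were counted by strand, and without strand the reads of such a pair cannot be told apart.

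SPRY2 (ENSG00000136158, chromosome 13 from 80335976 to 80341126, minus strand), an inhibitor of RAS and RAF signaling downstream of growth factor receptors, had 19.89, 17.09 and 19.44 FPKM in the shNC samples. It had 22.41, 23.17 and 23.17 FPKM in the shPQBP1 samples, all above the shNC samples. The log2 fold change was 0.29 (standard error 0.08, 95% interval from 0.08 to 0.49), or 22.0% higher, with an adjusted p of 0.123 from limma. SPRY4 (ENSG00000187678, chromosome 5 from 142310427 to 142326455, minus strand), the other abundant Sprouty gene, had 13.13, 12.94 and 13.40 FPKM in the shNC samples and 11.78, 12.37 and 13.00 in the shPQBP1 samples. It varied least within the groups of the 10 genes, at percentile 4.20 of the residual SD of all tested genes. Its log2 fold change was -0.09 (95% interval from -0.27 to 0.09, adjusted p = 0.483 from limma), and the groups overlapped. It was -0.053 without shPQBP1 sample 1 and -0.049 with the trend on GC content and length removed from each sample. SPRED1 (ENSG00000166068, chromosome 15 from 38252836 to 38357249, plus strand), a membrane protein that recruits the RAS GTPase-activating protein neurofibromin, had 10.38, 13.09 and 12.85 FPKM in the shNC samples. It had 13.01, 12.52 and 13.04 FPKM after knockdown, and only shNC sample 1 lay apart. Its log2 fold change was 0.09 (95% interval from -0.17 to 0.36, adjusted p = 0.606 from limma).

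The promoter windows of the Sprouty pair are shown because SPRY2 and SPRY4 differed in their values, and that of DUSP6 because it is a common readout of ERK. RefSeq windows on GRCh38.p14 were taken from 250 bases before to 50 after a start. The search used 7 windows of 5 of the 10 genes (DUSP6, SPRY2, SPRY4, SPRED1 and PHLDA1). No window was matched for DUSP5, ETV4, ETV5 and IER3. DUSP4 was left out of the search by choice, so the motif counts below say nothing of it. The 250 bases before the start are printed 5′ to 3′ on the gene's strand, which is the minus strand for all 3 genes, with motif matches on either strand in capitals. They are chr13:80341127-80341376 for the outermost of 3 SPRY2 starts, chr5:142324248-142324497 for SPRY4 and chr12:89352502-89352751 for DUSP6. The RefSeq start of SPRY4 lies inside the GENCODE gene, as do the inner SPRY2 starts. The outermost SPRY2 start and that of DUSP6 meet the end of their genes.
SPRY2: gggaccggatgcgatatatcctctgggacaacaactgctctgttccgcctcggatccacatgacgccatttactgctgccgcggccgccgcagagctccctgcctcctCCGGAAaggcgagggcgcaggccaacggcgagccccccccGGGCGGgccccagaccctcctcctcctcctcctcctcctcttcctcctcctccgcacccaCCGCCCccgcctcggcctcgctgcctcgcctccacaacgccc
SPRY4: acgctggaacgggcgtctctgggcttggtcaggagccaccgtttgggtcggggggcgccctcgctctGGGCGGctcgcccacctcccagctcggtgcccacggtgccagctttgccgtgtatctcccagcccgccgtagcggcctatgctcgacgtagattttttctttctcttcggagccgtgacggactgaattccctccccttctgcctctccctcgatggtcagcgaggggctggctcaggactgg
DUSP6: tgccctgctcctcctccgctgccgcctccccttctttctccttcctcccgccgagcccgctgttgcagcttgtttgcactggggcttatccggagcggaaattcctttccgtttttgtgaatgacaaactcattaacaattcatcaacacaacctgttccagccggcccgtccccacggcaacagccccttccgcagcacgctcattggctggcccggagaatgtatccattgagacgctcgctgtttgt
In the SPRY2 window, the ETS core CCGGAA lies at position -142 from the start and the GC box GGGCGG, or its reverse complement, at -102 and -42. The SPRY4 window holds the GC box at -183, and the DUSP6 window holds none of the 6 motifs searched. Over the 7 windows, the ETS core was found in 2 (1 of SPRY2 and that of PHLDA1), against 17.2% of all 35116 windows. The GC box was found in 5 of the 7, which belong to 4 genes, against 45.0% of all windows. The CRE TGACGTCA (1.85% of all windows), the AP-1 site TGANTCA (7.71%), the CArG box of the serum response factor (1.29%) and TATAAA (11.5%) were found in none of the 7. A match of letters is not a bound site, and the absence of one speaks only of these windows.

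ETV4 (ENSG00000175832, chromosome 17 from 43527844 to 43579620, minus strand), a PEA3 factor of the ETS family, had 12.31, 10.85 and 11.42 FPKM in the shNC samples. It had 8.28, 8.31 and 8.25 FPKM in the shPQBP1 samples, which lay below every shNC sample and were nearly equal, with a log2 range at percentile 0.241 of all tested genes. The log2 fold change was -0.47 (standard error 0.08, 95% interval from -0.66 to -0.28, adjusted p = 0.0364 from limma), a level lower by the factor 0.722. Leaving out each of shNC samples 2 and 3 and of the 3 shPQBP1 samples in turn ended this call, with adjusted p between 0.0812 and 0.159 from limma, while the log2 fold change of ETV4 stayed between -0.51 and -0.42 over all 6 such fits. With the trend on GC content and length removed, it was -0.26 (adjusted p = 0.0932 from limma). ETV4 overlaps DHX8 on the other strand with 68 of its 3515 exonic bases. DHX8 had 10.6, 9.42 and 9.49 FPKM in the shNC samples and 8.02, 9.07 and 8.19 in the shPQBP1 samples. ETV5 (ENSG00000244405, chromosome 3 from 186046314 to 186110318, minus strand), the close relative of ETV4, had 32.64, 28.55 and 30.68 FPKM in the shNC samples and 25.02, 28.92 and 27.25 in the shPQBP1 samples. Its groups overlapped in 1 pair of samples, and its log2 fold change was -0.18 (95% interval from -0.40 to 0.04, adjusted p = 0.276 from limma).

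IER3 (ENSG00000137331, chromosome 6 from 30743199 to 30744548, minus strand), an immediate early gene whose protein is a substrate of ERK, had the highest level of the set, at percentile 95.2 of the tested genes. It had 64.88, 52.89 and 51.72 FPKM in the shNC samples and 65.04, 68.90 and 72.23 in the shPQBP1 samples, where the lowest shPQBP1 sample and shNC sample 1 were nearly equal. The log2 fold change was 0.29 (standard error 0.11, 95% interval from 0.03 to 0.55), or 22.1% higher, with an adjusted p of 0.179 from limma. Without shNC sample 1, the log2 fold change of IER3 was 0.39 with an adjusted p of 0.0443 from limma, and with each other sample left out the adjusted p stayed above 0.05. PHLDA1 (ENSG00000139289, chromosome 12 from 76025447 to 76031776, minus strand), a gene with a pleckstrin homology-like domain that is induced by growth factors, had 28.30, 28.65 and 31.77 FPKM in the shNC samples. It had 40.11, 15.72 and 37.85 FPKM after knockdown: 2 samples lay above every shNC sample and 1 below. Its log2 range of 1.35 among the shPQBP1 samples was at percentile 96.8 of all tested genes, against percentile 18.8 for its range among the shNC samples. It had a log2 fold change of -0.04 (95% interval from -0.90 to 0.83, adjusted p = 0.956 from limma), and without shPQBP1 sample 2 it was 0.40 (adjusted p = 0.165 from limma).

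The GC content of the longest listed transcript ran from 36.3% in SPRED1 to 60.6% in ETV4 among the 10 genes, around a median of 47.3% over the tested genes. Across the 11406 tested genes with a transcript in GENCODE release 44, the log2 fold change followed GC content with a Spearman's rho of -0.455, a description across genes that share the same 6 libraries. After the trend on GC content and length was removed from each sample, 3 of the 10 genes had an adjusted p under 0.05 (limma): DUSP4 with a log2 fold change of 0.39 (adjusted p = 0.0316), SPRY2 with 0.34 (0.0307) and IER3 with 0.47 (0.0118). Over all genes, the same fit called 7.61%. ETV4 was not among them. DUSP5 and SPRED1 changed sign, to 0.13 and -0.19, as they also did without shNC sample 1, to 0.04 and -0.01.

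**Figure D2:**
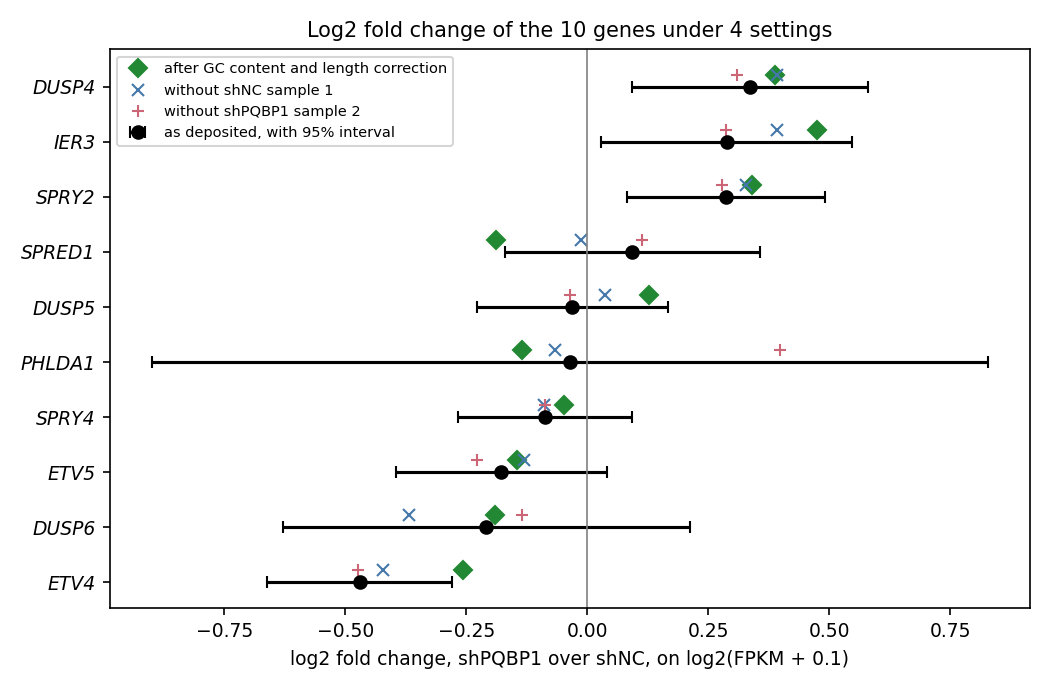
Log2 fold change (horizontal axis, shPQBP1 over shNC) of the 10 genes, with the values as deposited and their 95% interval (black), after the correction for GC content and length (green diamonds), without shNC sample 1 (blue crosses) and without shPQBP1 sample 2 (red plus signs). DUSP4, SPRY2 and IER3 stay above 0 and ETV4, ETV5, DUSP6 and SPRY4 below 0 in these settings, while SPRED1, DUSP5 and PHLDA1 lie on both sides.

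FPKM is scaled to transcript length, so that levels of different genes can be set side by side within a sample. The orders given here are of the values as deposited, without the correction for GC content and length. In the shNC samples the order of mean FPKM was IER3 (56.5), DUSP5 (43.1), ETV5 (30.6), PHLDA1 (29.6), SPRY2 (18.8), SPRY4 (13.2), DUSP6 (12.9), SPRED1 (12.1), ETV4 (11.5) and DUSP4 (7.13). The ranges of neighbours overlapped between ETV5 and PHLDA1 and along the run from SPRY4 to ETV4. In the shPQBP1 samples IER3 (68.7) and DUSP5 (42.1) again led, and DUSP4 (9.02) and ETV4 (8.28) had changed places at the end with ranges that did not overlap. Neighbours overlapped there between PHLDA1 and ETV5, between SPRED1 and SPRY4 and between SPRY4 and DUSP6.

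Within families, 4 ratios were formed inside each sample, which removes any scaling that 2 genes share but not a trend on GC content, in which they can differ. The log2 ratio of SPRY4 over SPRY2 was -0.60, -0.40 and -0.53 in the shNC samples and -0.92, -0.90 and -0.83 in the shPQBP1 samples. As deposited, SPRY4 thus stood at 0.703 times the level of SPRY2 in the shNC samples and at 0.542 times in the shPQBP1 samples. With the trend on GC content and length removed, these levels were 1.02 and 0.776 times. SPRY4 was then no longer below SPRY2 on average in the shNC samples. The log2 ratio of ETV5 over ETV4 was 1.40, 1.39 and 1.42 in the shNC samples and 1.58, 1.79 and 1.71 in the shPQBP1 samples, or 2.64 times against 3.24 times. Both ratios separated the groups without overlap, with an exact permutation p of 0.1, the smallest possible, and 0.2 after Benjamini-Hochberg adjustment over the 4 ratios. After the correction for GC content and length, the difference in the ratio of ETV5 over ETV4 went from 0.29 to 0.11 and the groups overlapped (exact permutation p = 0.4). That of SPRY4 over SPRY2 was -0.37 before and -0.39 after, still without overlap. The log2 ratio of DUSP6 over DUSP4 was 0.41, 1.11 and 0.99 in the shNC samples and 0.63, 0.09 and 0.15 in the shPQBP1 samples (exact permutation p = 0.2). The correction took its mean from 0.84 to 0.47 in the shNC samples and from 0.29 to -0.11 in the shPQBP1 samples. The log2 ratio of DUSP5 over DUSP6 overlapped widely, with means of 1.74 and 1.92 (exact permutation p = 0.6), a difference of 0.18 that was 0.32 after the same correction (exact permutation p = 0.2). It ranged from 0.060 without shNC sample 3 to 0.405 without shNC sample 1, and leaving out shNC sample 2 gave 0.068, shPQBP1 sample 1 0.293 and shPQBP1 sample 2 0.099.

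**Figure D3:**
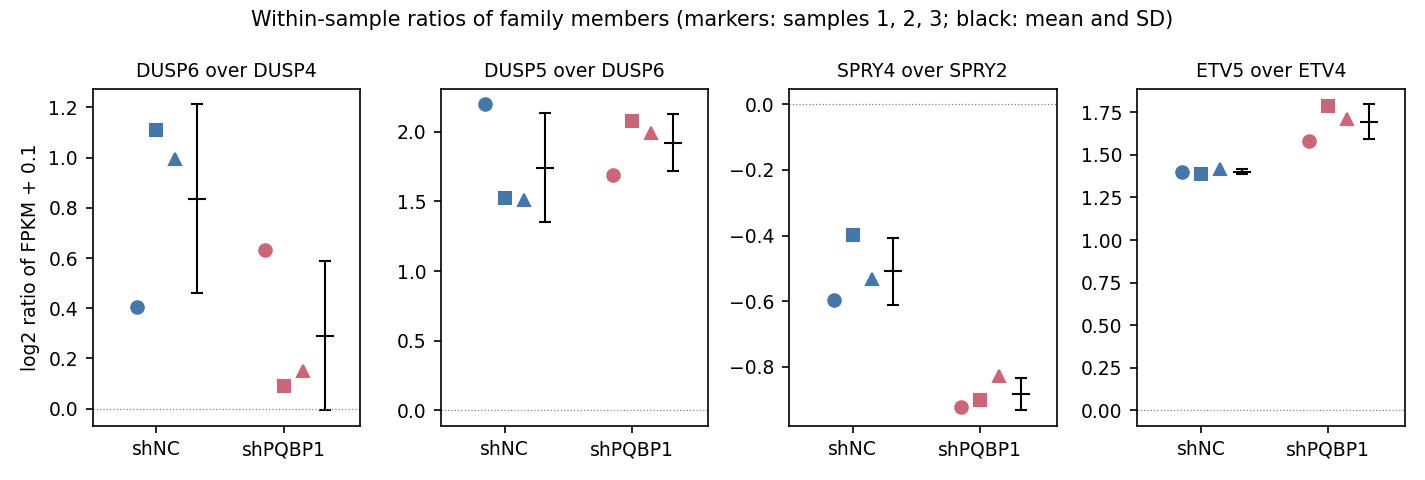
Log2 ratio of FPKM + 0.1 (vertical axes) of 4 gene pairs in each shNC (blue) and shPQBP1 (red) sample, with the mean and SD in black. The ratio of SPRY4 over SPRY2 is lower, from -0.92 to -0.83, and that of ETV5 over ETV4 higher, from 1.58 to 1.79, in all 3 shPQBP1 samples.

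The rest of the pathway was read from 5 lists of 86 genes, of which 68 were tested. The calls are those of limma over all tested genes, whose median log2 fold change was 0.02 and of which 2.91% passed with adjustment and 23.6% at an unadjusted p under 0.05. Of 8 tested other MAPK phosphatases (median 0.07), 0 passed with adjustment and 1, DUSP14, at an unadjusted p under 0.05. DUSP14, a small phosphatase that acts on MAP kinases, had 22.9, 20.77 and 21.57 FPKM in the shNC samples and 16.89, 18.16 and 17.89 in the shPQBP1 samples (log2 fold change -0.30, adjusted p = 0.0932 from limma). DUSP3, another small phosphatase of ERK and JNK, had the next smallest p. Its values were 3.57, 3.36 and 2.75 FPKM in the shNC samples and 11.23, 3.00 and 20.04 in the shPQBP1 samples (adjusted p = 0.242 from limma). The shPQBP1 sample 2 lay with the controls. Of 11 tested brakes on RAS (median -0.02), the other Sprouty and SPRED genes included, 0 passed with adjustment and 3 without, each of them lower (limma), where 11.7% of all tested genes were lower. At 3 of 11, the share without adjustment was near that of all tested genes. RASA3, a GTPase-activating protein, differed by -0.34 on the log2 scale (adjusted p = 0.0996 from limma), and DAB2IP, another of this kind, -0.38 (adjusted p = 0.155 from limma). After the correction for GC content and length these were -0.21 for RASA3 and -0.22 for DAB2IP. Named after its values were seen, SPRED2, a relative of SPRED1, had mean levels of 10.6 FPKM in the shNC and 10.5 in the shPQBP1 samples. SPRED3, another relative also named after its values were seen, was among the 3 lower genes. It had 4.38, 3.61 and 3.72 FPKM in the shNC samples and 3.32, 3.25 and 2.86 in the shPQBP1 samples, without overlap (log2 fold change -0.30, adjusted p = 0.188 from limma).

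Of 20 tested genes of the RAS-RAF-MEK-ERK core and its scaffolds (median 0.22), 0 passed with adjustment and 6 without, 3 of them higher and 3 lower (limma), again near the share of all tested genes. RRAS2, a RAS-related GTPase, had 48.85, 56.67 and 34.31 FPKM in the shNC samples and 92.36, 102 and 84.41 in the shPQBP1 samples. The groups lay apart by 1.02 on the log2 scale (standard error 0.19), with an adjusted p of 0.0513 from limma that ran from 0.0389 to 0.178 over the 15 alternatives and was under 0.05 in 4. GRB2, the adaptor that links receptors to the exchange factor SOS, went from a mean of 36.9 to 29.3 FPKM (log2 fold change -0.33, adjusted p = 0.123 from limma). It passed after the correction for GC content and length, with -0.24 (adjusted p = 0.0364 from limma).

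Of 16 tested other ERK output genes (median 0.0025), 1 passed with adjustment and 4 without, 2 of them higher and 2 lower (limma), near the share of all tested genes. TNC, which encodes the matrix protein tenascin C, rose from 25.38, 24.27 and 22.14 FPKM in the shNC samples to 37.96, 40.20 and 39.04 in the shPQBP1 samples (log2 fold change 0.71, standard error 0.08, adjusted p = 0.0154 from limma). The call of TNC was lost with any sample but shNC sample 1 left out, with adjusted p between 0.0532 and 0.0889 from limma, while its log2 fold change stayed between 0.65 and 0.75. EPHA2, a receptor tyrosine kinase, had means of 62.8 and 49.0 FPKM (log2 fold change -0.36, adjusted p = 0.1 from limma), or -0.16 with the trend on GC content and length removed. Named after their values were seen, CCND1, the cyclin D1 gene, had means of 210.9 and 222.2 FPKM, EGR1 of 29.8 and 29.5 FPKM and FOSL1 of 258.1 and 222.7 FPKM, and the adjusted p of limma was 0.436, 0.955 and 0.147. The groups overlapped for EGR1. They did not overlap for CCND1, which was higher, and FOSL1, which was lower, as for 34.4% of all tested genes. FOSL1 was among the 4 genes that passed without adjustment (unadjusted p = 0.0219 from limma).

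Of 13 tested ERK effector kinases and nuclear factors (median -0.05), 2 passed with adjustment, both higher, and 6 without, 4 of them higher (limma). Over all tested genes, 2.91% passed with adjustment and 23.6% without, and 11.9% were higher without adjustment. ELK3, an ETS family factor that ERK phosphorylates, rose from 18.65, 24.43 and 22.98 FPKM in the shNC samples to 72.34, 70.90 and 74.45 in the shPQBP1 samples. The difference was 1.72 on the log2 scale (standard error 0.11), with an adjusted p of 0.00389 from limma. RPS6KA2, which encodes an ERK-activated ribosomal S6 kinase, rose from 1.09, 1.08 and 1.17 FPKM to 1.76, 1.88 and 1.85 (log2 fold change 0.67, adjusted p = 0.0412 from limma). The call of RPS6KA2 was lost with any 1 sample left out, with adjusted p between 0.0503 and 0.167 from limma, with quantile normalization (0.0578) and when any gene with a value above 0 was tested (0.0878). The log2 fold change of RPS6KA2 stayed between 0.65 and 0.70 with 1 sample left out and was 0.59 with quantile normalization. With a pseudocount of 1 it was 0.42 (adjusted p = 0.0351 from limma). ELK3 kept its call with any 1 sample left out, with adjusted p of at most 0.0358 from limma. CIC, the repressor of ETV4 and ETV5, had means of 4.85 and 4.23 FPKM and ATXN1L, its partner, of 8.26 and 9.98 FPKM, both named after their values were seen and neither with an adjusted p under 0.05 (0.244 and 0.125 from limma). The groups did not overlap for either gene, with CIC lower and ATXN1L higher, as for 34.4% of all tested genes. ATXN1L was among the 6 genes that passed without adjustment (unadjusted p = 0.0143 from limma).

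**Figure D4:**
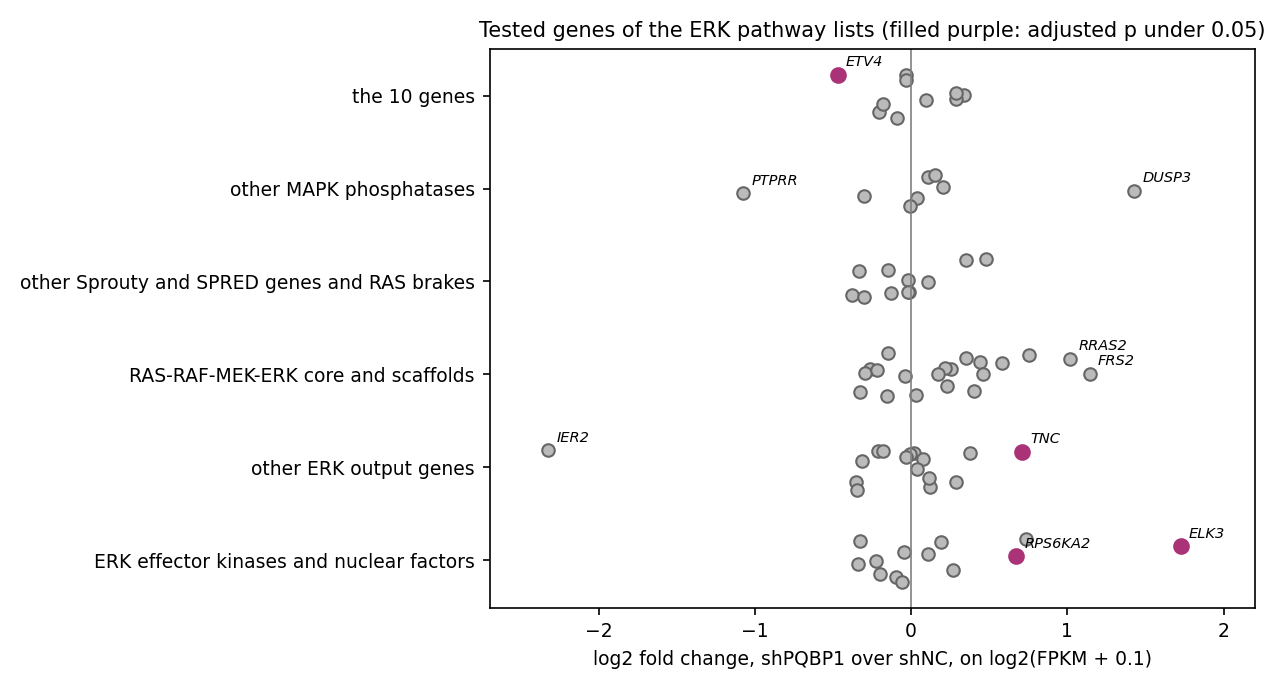
Log2 fold change (horizontal axis, shPQBP1 over shNC) of the tested genes of the 6 lists, with genes at an adjusted p under 0.05 (limma) in purple. ETV4 lies at -0.47, TNC at 0.71, RPS6KA2 at 0.67 and ELK3 at 1.72, and the 10 feedback and output genes stay between -0.47 and 0.34.

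The sample in which PHLDA1 stood apart, shPQBP1 sample 2, was looked at after its values were seen, and the count that follows is a description. Beside PHLDA1, the tested genes of the 6 lists that lay there more than 1 log2 unit from both other samples of the group, as 1.25% of all tested genes did, were DUSP3, FRS2, IER2 and MAFF. IER2, an immediate early gene, had 23.07, 17.79 and 18.93 FPKM in the shNC samples and 1.04, 27.82 and 1.88 in the shPQBP1 samples. FRS2, the docking protein of the FGF receptor, had 1.39, 2.59 and 2.65 FPKM in the shNC samples and 7.50, 2.12 and 6.93 in the shPQBP1 samples. MAFF, a small basic leucine zipper factor, had 23.11, 17.74 and 3.42 FPKM in the shNC samples and 15.41, 2.91 and 15.02 in the shPQBP1 samples. Against both other shPQBP1 samples, shPQBP1 sample 2 was lower for PHLDA1, DUSP3, FRS2 and MAFF and higher for IER2. Against the controls, the genes in this sample did not share a position. FRS2 and DUSP3 lay within the range of the controls, IER2 above it, and MAFF and PHLDA1 below it.

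The profile of DUSP6 over the 6 samples was set beside those of all other tested genes by the root mean square distance of the log2 values, each centred on its own mean. The nearest were AC083899 (distance 0.0518), PCGF3 (0.0584), AL021707 (0.0605), AC098591 (0.0655) and CREBZF (0.067). CREBZF, a basic leucine zipper factor, had 6.45, 8.89 and 9.68 FPKM in the shNC samples and 9.18, 6.87 and 6.43 in the shPQBP1 samples, with shNC sample 1 low and shPQBP1 sample 1 high, as in DUSP6. Of the other 9 feedback and output genes, SPRED1 was nearest (0.196, percentile 7.36 of all tested genes) and SPRY4 next (0.229, percentile 15.5). PHLDA1 was farthest (0.400, percentile 77.1), with IER3 (0.396) and DUSP4 (0.389) close to it.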

How the data were processed

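Short-read RNA-seq of HEY cells, 3 shNC and 3 shPQBP1 samples, was used. The build hg38 and the tools HISAT2 (version 2.2.0), SAMtools (version 1.9), StringTie (version 1.3.0) and edgeR are named in the submitters' processing notes. The FPKM values were deposited by the authors per gene and sample, rounded to 2 decimals. The annotation release and strandedness are not given in the sources used here. Columns of the authors' own fold changes, p-values and q-values were not used. No sample column was left out. Low FPKM values of single-exon genes showed no steps of whole reads: read as 1 fragment, those of 55 to 72 genes per sample would need implausibly large libraries. The depth is therefore unknown.

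Of 32679 genes, the 11413 whose FPKM averaged 1 or more were tested on log2(FPKM + 0.1) with limma 3.58.1 in R 4.3.3 (lmFit and eBayes, trend on the mean level, two-sided). P-values were adjusted by Benjamini-Hochberg over these genes. The step was tested on simulated data. Single values were compared with a two-sided exact permutation test of the 6 samples. Alternatives were other scalings, filters, pseudocounts of 1 and 0.01, no trend, a replicate block, each sample left out, and removal of the trend on GC content and log length per sample (natural splines, 5 degrees of freedom, longest listed transcript in GENCODE release 44). Coordinates are from that release on hg38 and may differ from the authors' annotation. The genes and lists were chosen with earlier results of these data known. The genes named are the 10 genes, PQBP1, genes of each list at an adjusted p under 0.05 or, with fewer than 2 of these, the 2 with the smallest p, and the 5 genes nearest to DUSP6. Others are said to be named after their values were seen.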

Additional observations from a re-analysis of the deposited data

How the results depend on the processing

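Over 15 alternatives, 382 of 465 values kept their direction and their side of the threshold or, for counts, stayed within 1.5 times. The 465 include the within-sample ratios, which could change direction but not their side of 0.05. Their smallest possible exact permutation p is 0.1. The adjusted test of limma called 332 genes, 190 when any gene with a value above 0 was tested, 211 at a mean of at least 10 FPKM, 868 after the GC content and length correction and 30 to 464 with 1 sample left out. Of the 10 feedback and output genes, it called 0 under the first 2 of these, 3 after the GC content and length correction and 0 to 2 with 1 sample left out. At a mean of at least 10 FPKM, 2 of the 10 had an unadjusted p under 0.05, with DUSP4 and ETV4 not tested there, and 2 to 5 had with 1 sample left out. ETV4 kept its log2 fold change of -0.47 but not its call with every gene above 0 tested (adjusted p = 0.0655, limma), had -0.26 after the GC content and length correction and ranged from -0.51 to -0.42 with 1 sample left out. Over its 14 alternatives the adjusted p of ETV4 ran from 0.0337 to 0.234 (limma). The GC content and length correction gave 0.39 for DUSP4, 0.34 for SPRY2 and 0.47 for IER3, all past the threshold, and turned DUSP5 to 0.13 and SPRED1 to -0.19. With 1 sample left out, the log2 fold change ranged from -0.076 to 0.037 for DUSP5, from -0.013 to 0.15 for SPRED1, from -0.27 to 0.40 for PHLDA1 and from 0.23 to 0.39 for IER3. DUSP5 and SPRED1 turned without shNC sample 1, and PHLDA1 without shNC sample 3 (0.02) or shPQBP1 sample 2 (0.40). Of the other MAPK phosphatases, 1 passed after the GC content and length correction. Of the RAS-RAF-MEK-ERK core, 1 passed with quantile normalization, 1 at a mean of at least 10 FPKM, 1 with a pseudocount of 1 and 3 after the GC content and length correction. Of the other ERK output genes, 2 passed after that correction and 0 to 1 with 1 sample left out. Of the effector kinases and nuclear factors, 1 passed with quantile normalization, with every gene above 0 tested, at a mean of at least 10 FPKM and with any 1 sample left out. The share of calls that were higher was 59.3%, 50.8% with quantile normalization and 75.4% without shNC sample 3. The ratios after the GC content and length correction were chosen after seeing the data. The replicate numbers did not pair the samples, since same-numbered samples deviated from their group means with correlations of -0.19, -0.14 and -0.01. With the replicate block, 0 genes passed the adjusted test of limma and 1840 the unadjusted one, where 1 of the 10 genes had an unadjusted p under 0.05, 0 of the 10, 0 of the other ERK output genes and 0 of the effectors passed with adjustment, ETV4 had -0.47 (adjusted p = 0.234), ELK3 1.72 (adjusted p = 0.0863) and PQBP1 -2.04 (adjusted p = 0.0686). The cause of these changes was not tested, apart from the smaller number of samples or genes in some. With 3 samples a group and no read counts, the precision of low FPKM values is unknown.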
